A study of Mus musculus with 10 samples.

Results

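The 10 genes described here encode the receptor chains through which microglia sense interleukin-10 (IL-10), interferons and tumor necrosis factor (TNF), together with IL-10 itself and the interleukin-1 receptor antagonist. They are the rows named *Il10*, *Il10ra*, *Il10rb*, *Ifngr1*, *Ifngr2*, *Ifnar1*, *Ifnar2*, *Tnfrsf1a*, *Tnfrsf1b* and *Il1rn* of a table of 55453 genes, and all 10 were found. RNA was sequenced from CD45int CD11b+ microglia that had been sorted from hippocampal tissue of 3xTg AD females older than 15 months, in 10 libraries. The 5 PBS libraries (titles 388_1 to 388_5) came from mice given phosphate-buffered saline. The 5 GA libraries (394_1, 394_2, 400_1, 400_2 and 400_3) came from mice given 0.1 mg of glatiramer acetate (GA), a copolymer drug used in multiple sclerosis, weekly for about 8 weeks. By the study's methods the injections were subcutaneous, with an additional injection in the first week. Both groups carried the same 3xTg transgenes, which include mutated human *APP* (Swedish) and *MAPT*, driven per the methods by the Thy1.2 promoter, and the mice were retired breeders of a homozygous colony. No microglia of non-transgenic mice entered the comparison, so it describes GA on the transgenic background only. The labels do not say whether each library came from 1 mouse, and *P*-values therefore measure the spread between these libraries. They also do not explain the title prefix, which cannot be told apart from treatment, since no prefix holds both PBS and GA libraries.

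Each of these receptors works as an assembly of chains. IL-10 binds the ligand-binding chain encoded by *Il10ra*, which recruits the shared chain encoded by *Il10rb*, and the complex signals through JAK1, TYK2 and STAT3 to restrain inflammatory gene expression in macrophages and microglia. Interferon-gamma uses the chains of *Ifngr1* and *Ifngr2*, and type I interferons those of *Ifnar1* and *Ifnar2*, and both signal through Janus kinases. TNF acts on the receptor of *Tnfrsf1a*, which carries a death domain, and on that of *Tnfrsf1b*, which does not and is found mainly on immune and endothelial cells. The product of *Il1rn* occupies the interleukin-1 receptor without activating it.

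*Ifnar2*, *Il10rb*, *Ifnar1* and *Ifngr2* lie side by side on chromosome 16, all on the plus strand, within 192.8 kb of the GRCm38 assembly. In the GENCODE M21 annotation *Ifnar2* covers chr16:91372783-91405589 and *Il10rb* begins 0.6 kb further on, at chr16:91406164-91425834. *Ifnar1* follows at chr16:91485238-91507441 and *Ifngr2* at chr16:91547072-91565623. The other members are scattered: *Il10* is at chr1:131019845-131024974 and *Il10ra* at chr9:45253837-45269149. *Ifngr1* is at chr10:19591949-19610229, *Tnfrsf1a* at chr6:125349362-125362484, *Tnfrsf1b* at chr4:145213463-145246870 and *Il1rn* at chr2:24336853-24351494.

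RefSeq promoter windows of 300 bases (GRCm38.p6) matched 7 of the 10 genes, with 3 start sites for *Il1rn*, while *Il10*, *Il10ra* and *Il10rb* were not matched. The windows of 5 genes are shown: the 3 matched receptors of the chromosome 16 cluster, of which *Ifnar2* and *Ifngr2* varied most alike between libraries, *Tnfrsf1b*, whose window held the most kinds of interferon-type motif, and the most upstream start of *Il1rn*, the least abundant and most variable of the counted members. Each runs 5′ to 3′ on the gene's strand, and capitals mark matches on either strand to GGGCGG, to TTCNNNGAA, to GAAA and GAAA with 2 bases between them, or to GGGA and TTCC with 2 bases between them, or to TATAA on the gene's strand.
Ifnar2, chr16:91372533-91372832, plus strand: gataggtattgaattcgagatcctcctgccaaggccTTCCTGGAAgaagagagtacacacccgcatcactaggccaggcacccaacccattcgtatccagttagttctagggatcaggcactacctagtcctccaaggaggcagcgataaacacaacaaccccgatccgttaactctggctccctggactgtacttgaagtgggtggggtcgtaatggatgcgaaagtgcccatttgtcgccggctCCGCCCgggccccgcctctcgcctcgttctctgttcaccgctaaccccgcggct
Ifnar1, chr16:91484965-91485264, plus strand: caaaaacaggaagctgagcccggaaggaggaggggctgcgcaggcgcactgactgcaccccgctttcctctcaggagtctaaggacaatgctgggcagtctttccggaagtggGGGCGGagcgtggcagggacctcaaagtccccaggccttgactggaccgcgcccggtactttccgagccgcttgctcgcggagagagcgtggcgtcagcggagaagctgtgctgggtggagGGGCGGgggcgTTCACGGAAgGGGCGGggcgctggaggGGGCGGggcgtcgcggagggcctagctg
Ifngr2, chr16:91546809-91547108, plus strand: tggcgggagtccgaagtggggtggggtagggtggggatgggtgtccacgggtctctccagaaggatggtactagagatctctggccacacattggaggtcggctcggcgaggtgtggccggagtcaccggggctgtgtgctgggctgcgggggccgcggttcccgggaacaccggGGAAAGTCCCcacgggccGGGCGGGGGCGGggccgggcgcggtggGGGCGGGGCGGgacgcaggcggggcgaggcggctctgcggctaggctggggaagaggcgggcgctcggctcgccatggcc
Tnfrsf1b, chr4:145246821-145247120, minus strand: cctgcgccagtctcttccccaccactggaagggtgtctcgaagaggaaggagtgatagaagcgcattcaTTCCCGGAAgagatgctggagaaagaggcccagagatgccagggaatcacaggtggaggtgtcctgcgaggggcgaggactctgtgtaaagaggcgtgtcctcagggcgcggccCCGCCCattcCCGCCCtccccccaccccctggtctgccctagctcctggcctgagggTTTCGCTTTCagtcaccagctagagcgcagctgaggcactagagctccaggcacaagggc
Il1rn, chr2:24336610-24336909, plus strand: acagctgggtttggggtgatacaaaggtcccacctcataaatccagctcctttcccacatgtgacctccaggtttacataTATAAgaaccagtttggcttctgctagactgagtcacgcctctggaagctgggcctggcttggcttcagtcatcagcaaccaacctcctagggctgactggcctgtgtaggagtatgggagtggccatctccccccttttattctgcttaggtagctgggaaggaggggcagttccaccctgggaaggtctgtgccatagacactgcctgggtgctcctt

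The windows of the receptors had more CpG dinucleotides than the median promoter, and that of *Il1rn* had fewer. The *Ifngr2* window had a GC content of 74.3% with 31 CpG dinucleotides, and that of *Ifnar1* 68.3% with 26, against medians of 52.7% and 7 over 32851 promoters of the same length. Both held 4 matches to GGGCGG, the GC box, which 35.7% of all promoters hold at least once, and neither held TATAA. The first *Il1rn* window had a GC content of 54%, 1 CpG, no GC box and a match to TATAA, which occurs in 17.5% of promoters. TTCNNNGAA, the form of sequence bound by STAT proteins, was found in the windows of *Ifnar1*, *Ifnar2*, *Tnfrsf1a* and *Tnfrsf1b*, and in 8.3% of all promoters. The paired GAAA, the form bound by interferon regulatory factors, was found only in that of *Tnfrsf1b* among the matched members (3.44% of promoters), and GGGA with TTCC, the NF-kB form, only in that of *Ifngr2* (1.47%). These are matches of letters and not evidence of binding, and adjacent matches can share bases.

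The receptors were abundant in these microglia and the 2 soluble factors were not. Levels were compared between genes as RPKM, the counts scaled to library size (CPM, with TMM factors) per kilobase of merged exons, which averaged over the 10 libraries 533 for *Ifngr1*, 284 for *Il10ra*, 133 for *Tnfrsf1b*, 97.6 for *Ifngr2*, 80.1 for *Tnfrsf1a*, 73.6 for *Ifnar2*, 44.3 for *Il10rb* and 30.6 for *Ifnar1*. Among 14375 genes with a length, *Ifngr1* ranked 50 and *Il10ra* 98, and the lowest receptor chain, *Ifnar1*, ranked 1441. *Il1rn* averaged 1.33 RPKM, a rank of 10133. *Il10* had 0 counts in each of the 10 libraries, which allows up to 3 counts, or between 0.0589 and 0.0710 RPKM depending on the library.

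**Figure D1:**
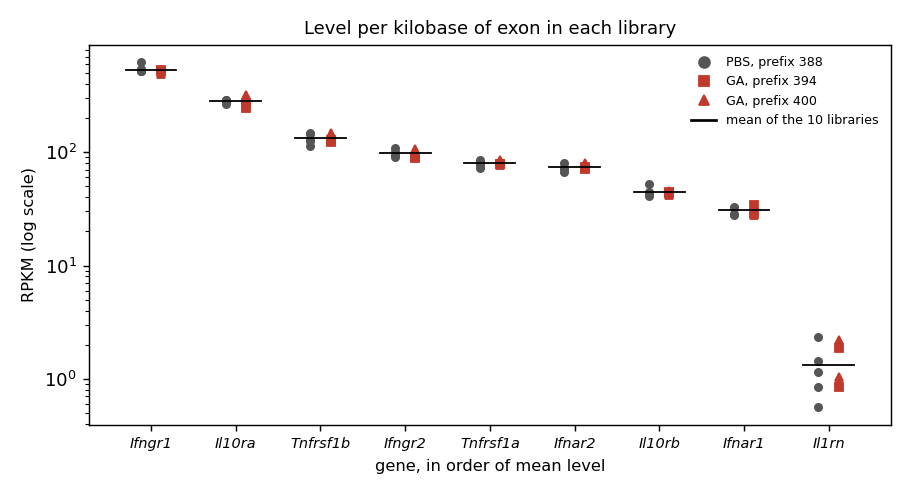
Level of each detected gene in RPKM on a log axis, with 1 point per library (grey circles PBS, red squares and triangles GA of prefixes 394 and 400) and a bar at the mean of the 10 libraries. The 8 receptor chains lie between 30.6 and 533 RPKM on average, far above *Il1rn* at 1.33 RPKM.

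Along this order each gene exceeded the next in all 10 libraries, with ranges that did not overlap, except for *Tnfrsf1a* and *Ifnar2*. *Tnfrsf1a* ran from 72.1 to 86.0 RPKM and *Ifnar2* from 66.6 to 80.7 RPKM, and *Tnfrsf1a* was higher in 9 of 10 libraries. Lengths bear on the middle of the order. *Gm21970*, a gene model that reads from *Ifnar2* into *Il10rb* on the same strand, shares 315 exon bases (9.46%) with *Ifnar2* and 569 (14.9%) with *Il10rb*, had 0 counts in every library, and reads in the shared bases may have been left uncounted. With those bases left out of the length, *Ifnar2* (81.3 RPKM) stood above *Tnfrsf1a* (80.1 RPKM). With the length of the longest coding transcript, *Il10rb* (91.3 RPKM) stood above *Ifnar2* (80.5 RPKM). Both lengths were tried after the data were seen.

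GA treatment moved none of these genes beyond the spread between libraries. Of the 9 genes with enough counts to test, 0 passed an adjusted *P* of 0.05 in edgeR's quasi-likelihood test, as did 0 (0%) of the 14481 genes tested. At an unadjusted *P* under 0.05 there were 0 of 9, beside 5.75% of all genes (2.58% higher and 3.17% lower in GA), and the PBS and GA libraries were separated without overlap for 0 of 9, beside 0.891%. DESeq2 called 2 genes of 18894 (0.0106%) and limma-voom 0, no member among them. Of the 9 members, 5 were higher and 4 lower in GA, with a median log2 fold change of 0.02, beside 0.0002 over all genes. Of all genes tested 50.1% were higher.

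**Figure D2:**
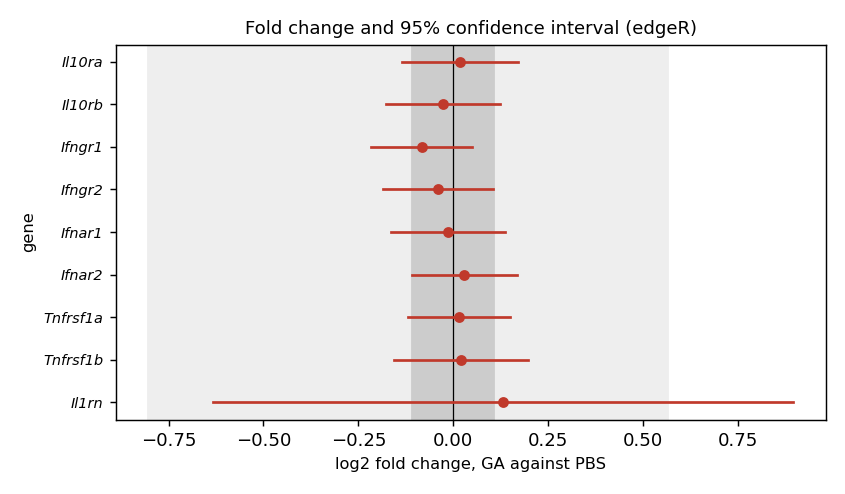
Log2 fold change of each tested gene, GA against PBS, with its 95% confidence interval from edgeR (5 libraries per group). Dark and light grey bands hold the interquartile range and the central 95% of fold changes over all genes tested, and every interval spans 0, that of *Il1rn* being the widest.

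*Il10ra*, the ligand-binding chain for IL-10, was the member next to *Ifngr1* in level, and its group means differed by less than their SDs. *Il10ra* was measured at 1006.6, 998.9, 996.5, 1004 and 928 CPM in PBS libraries 388_1 to 388_5, at 952 and 855 CPM in GA libraries 394_1 and 394_2, and at 985.7, 1088 and 1118 CPM in 400_1, 400_2 and 400_3. The PBS libraries lay close together but for 388_5, and the GA libraries fell on both sides of them. The group means were 986.8 ± 33.1 CPM (SD, n = 5) for PBS and 999.7 ± 106 CPM for GA, a log2 fold change of 0.02 (SE 0.071, 95% interval -0.13 to 0.17, adjusted *P* = 0.981).

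Within the GA group *Il10ra* was lower in each prefix 394 library than in those of prefix 400, a difference that did not pass the adjusted threshold. The 2 libraries of prefix 394 averaged 903 CPM and the 3 of prefix 400 averaged 1064 CPM, a log2 difference of 0.24 (SE 0.073) with an unadjusted *P* of 0.0104 and an adjusted *P* of 0.32 in edgeR. Against all PBS libraries *Il10ra* was lower in prefix 394 (log2 fold change -0.12) and higher in prefix 400 (0.11), neither past the threshold. *Ifngr2* (0.15, unadjusted *P* = 0.0442, adjusted *P* = 0.474) was also higher in prefix 400 by the unadjusted test, which 1485 of the 14481 genes passed, while 2 genes passed the adjusted one. Whether the prefix marks a batch is not stated.

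*Il10rb*, the shared chain, was measured at 155, 164, 169, 164 and 200 CPM in the PBS libraries and at 169, 167, 160, 173 and 167 CPM in the GA libraries, in the order of their titles. All GA libraries fell within the PBS range, which 388_5 extended upward. Its means were 170 ± 17.1 CPM in PBS and 167 ± 4.54 CPM in GA (log2 fold change -0.03, 95% interval -0.18 to 0.12, adjusted *P* = 0.975).

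*Ifngr1*, the ligand-binding chain for interferon-gamma and the most abundant member, had the smallest *P*-value of the set. It was measured at 1499, 1537.5, 1489, 1488 and 1786 CPM in the PBS libraries and at 1524, 1476, 1519, 1390 and 1453 CPM in the GA libraries. Of the GA group, 3 libraries lay below every PBS library and the other two among them. The means were 1560 ± 128 CPM and 1472 ± 55.0 CPM, a log2 fold change of -0.08 (95% interval -0.22 to 0.05) with an unadjusted *P* of 0.2 and an adjusted *P* of 0.910. Without PBS library 388_5 the fold change was -0.025.

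*Ifngr2*, the signal-transducing chain, was measured at 344, 364, 376, 365.5 and 414 CPM in the PBS libraries and at 337, 342, 372, 400.5 and 360 CPM in the GA libraries. The groups overlapped, with both prefix 394 libraries below every PBS library. The means were 373 ± 25.9 CPM and 362 ± 25.5 CPM (log2 fold change -0.04, 95% interval -0.19 to 0.10, adjusted *P* = 0.963).

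The chains of the type I interferon receptor also kept their levels within the library spread. *Ifnar1*, the signalling chain, was measured at 170, 190, 191, 167 and 195 CPM in the PBS libraries and at 202, 174, 180, 181 and 167 CPM in the GA libraries. Of the GA libraries, 394_1 was above and 400_3 below all PBS libraries. The means were 182.6 ± 12.9 CPM and 180.9 ± 12.9 CPM (log2 fold change -0.01, 95% interval -0.16 to 0.14, adjusted *P* = 0.986).

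*Ifnar2*, the chain that binds type I interferon with high affinity, was measured at 222, 241.5, 241, 240 and 269 CPM in the PBS libraries and at 235, 244, 254, 265 and 240 CPM in the GA libraries. Every GA library fell within the PBS range. The means were 243 ± 16.8 CPM and 248 ± 12.1 CPM (log2 fold change 0.03, 95% interval -0.11 to 0.17, adjusted *P* = 0.972).

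**Figure D3:**
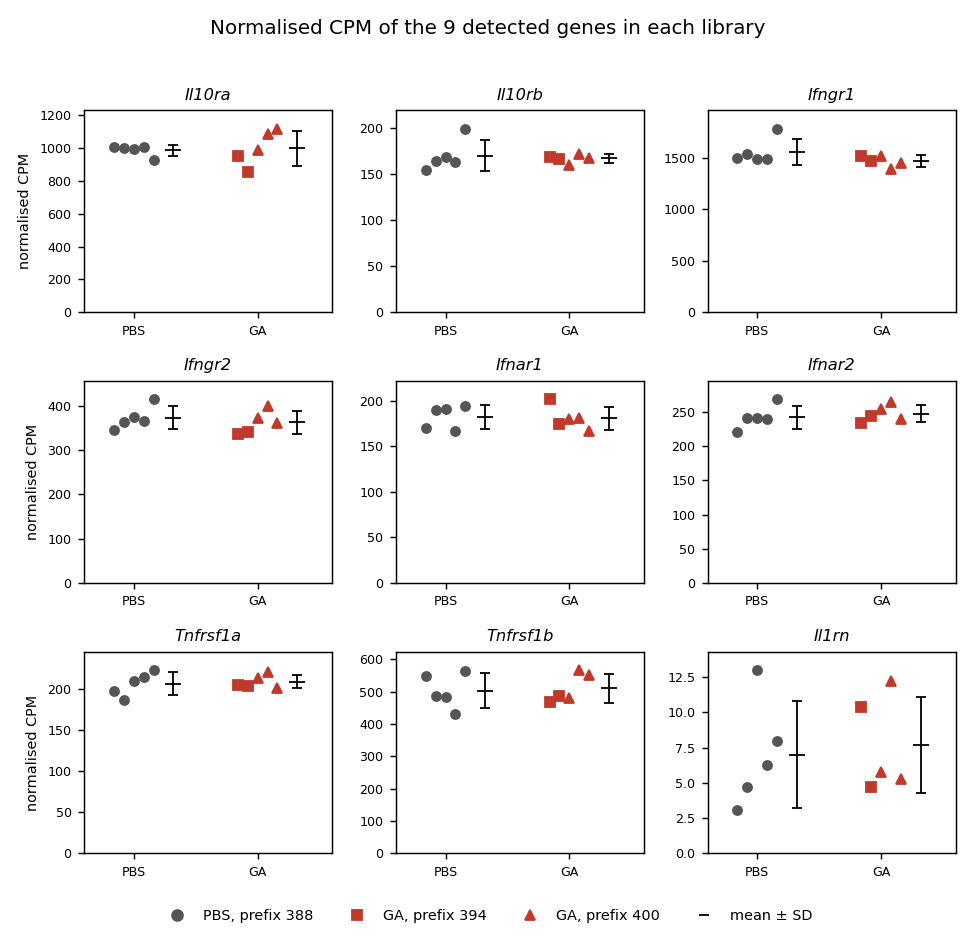
Normalised CPM of the 9 detected genes in each library, PBS (grey circles) and GA (red squares for prefix 394, triangles for prefix 400), with the mean and SD of each group beside the points and each axis starting at 0. The groups overlap in every panel, and *Il1rn* spans 3.09 to 13.0 CPM.

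Of the TNF receptors, *Tnfrsf1b* was the more abundant and the more variable. It was measured at 549, 487, 483, 432 and 564 CPM in the PBS libraries and at 469, 487, 479, 567 and 551 CPM in the GA libraries. Highs and lows occurred in both groups, and 1 GA library, 400_2, passed the PBS range by a small margin. The means were 503 ± 53.7 CPM and 511 ± 44.9 CPM (log2 fold change 0.02, 95% interval -0.15 to 0.20, adjusted *P* = 0.981).

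*Tnfrsf1a* was measured at 198, 187, 210, 214 and 223 CPM in the PBS libraries and at 204, 204, 213, 220 and 201 CPM in the GA libraries. All GA libraries again lay inside the PBS range. The means were 206 ± 14.2 CPM and 209 ± 7.92 CPM (log2 fold change 0.02, 95% interval -0.12 to 0.15, adjusted *P* = 0.983). *Tnfrsf1a* varied least of the members, with a coefficient of variation of 5.26% over the 10 libraries.

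*Il1rn* was low and variable. It was measured at 3.09, 4.69, 13.0, 6.29 and 7.96 CPM in the PBS libraries and at 10.4, 4.69, 5.78, 12.2 and 5.27 CPM in the GA libraries, from 118 to 466 counts. High and low libraries occurred under both treatments and both GA prefixes. The means were 7.01 ± 3.81 CPM and 7.67 ± 3.40 CPM (log2 fold change 0.13, SE 0.357, adjusted *P* = 0.975), and the 95% interval, -0.63 to 0.90, leaves room for a change of either sign. Its coefficient of variation was 46.7%, against 6.24% from counting error alone, while the 8 receptor genes had 5.26% to 9.24%.

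The 8 receptor genes had 5288 to 63031 counts per library. The outer bounds of their intervals ran from -0.22 to 0.20 on the log2 scale, a fold between 0.861 and 1.15. On log2(CPM + 0.1), exact permutation tests (two-sided) gave *P* from 0.183 (*Ifngr1*) to 0.865 (*Il10ra*) over the 9 members, where the smallest value that 5 against 5 libraries can give is 0.00794. In bulk RNA a smaller number of expressing cells and less RNA per cell cannot be told apart.

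The ratio of RNA between paired genes, the chains of a receptor or the TNF receptors, can be read in each library without regard to its depth. The ratio of *Il10ra* to *Il10rb* RPKM was 6.37 ± 0.77 in PBS and 6.51 ± 0.67 in GA (exact permutation *P* = 0.754), and that of *Ifngr1* to *Ifngr2* was 5.54 ± 0.22 and 5.41 ± 0.52 (exact permutation *P* = 0.675). *Ifnar1* was lower than *Ifnar2*, with a ratio of 0.422 ± 0.023 in PBS and 0.410 ± 0.040 in GA (exact permutation *P* = 0.524). *Tnfrsf1b* exceeded *Tnfrsf1a* by 1.66 ± 0.20 and 1.66 ± 0.14 (exact permutation *P* = 0.960). Adjusted over the 4 ratios, each *P* was 0.96 (two-sided). The levels of these ratios depend on the gene lengths, which leave the comparison of PBS with GA as it is. With the longest coding transcripts *Il10ra* to *Il10rb* was 3.09 ± 0.37 in PBS and 3.16 ± 0.32 in GA, *Ifngr1* to *Ifngr2* was 7.35 in PBS, *Ifnar1* to *Ifnar2* 0.587 and *Tnfrsf1b* to *Tnfrsf1a* 1.38. The lowest *Il10ra* to *Il10rb* ratio, 5.06, was that of PBS library 388_5, and the highest *Ifnar1* to *Ifnar2* ratio, 0.482, that of GA library 394_1. Without 394_1 the log2 difference of the *Ifnar1* to *Ifnar2* ratio, GA against PBS, was -0.10 in place of -0.04 (exact permutation *P* = 0.0714). Since 394_1 was left out for its value in this same ratio, this *P* cannot serve as a test of GA.

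**Figure D4:**
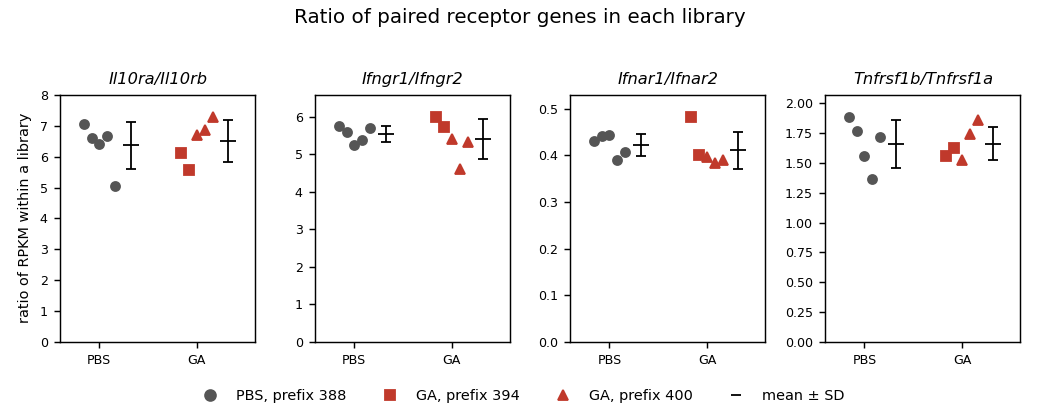
Ratio of RPKM between the chains or receptors of each pair in every library, PBS (grey circles) and GA (red squares for prefix 394, triangles for prefix 400), with group means and SDs and axes starting at 0. Mean ratios of PBS and GA differ by less than their SDs in each of the 4 panels.

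Transcripts of most ligands were at or near 0 in these libraries. Of 18 interferon ligand genes, 14 had 0 counts throughout, and all 18 together had 0 to 4 counts per PBS library and 0 to 9 per GA library. *Ifnb1*, which encodes interferon-beta, had 4, 8 and 7 counts in GA libraries 400_1, 400_2 and 400_3, 1 count in PBS library 388_5 and 0 in the others, including both libraries of prefix 394. *Ifna2* had 4 counts in 388_2 and 1 in 400_3, *Ifna4* 3 in 394_1, and *Ifng* 1 in 400_2. The filter on low counts kept all of them out of the edgeR fit. On log2(CPM + 0.1), the exact permutation test (two-sided) gave *P* = 0.167 for *Ifnb1* and *P* = 1 for *Ifna2*. *Ifna4* and *Ifng* were each counted in a single library, where this test can give no other value than 1, and are left without one. Of the relatives of IL-10, *Il22* had 1 count and *Ifnl2* 3, both in 400_2, and *Il19*, *Il20*, *Il24* and *Ifnl3* had 0.

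*Tnf* was present at a low level, 6.94 ± 2.76 CPM in PBS and 6.60 ± 1.52 CPM in GA (adjusted *P* = 0.981), and *Ltb*, which encodes lymphotoxin-beta, at 8.02 ± 1.13 and 6.68 ± 1.02 CPM (unadjusted *P* = 0.116, adjusted *P* = 0.895). *Lta* had 9 counts in 388_5, 1 in 394_2 and 0 elsewhere. *Adam17*, which encodes the protease that sheds TNF and its receptors, was measured at 451 ± 31.6 and 449 ± 17.6 CPM (adjusted *P* = 0.997). The ligands that the *Il1rn* product opposes were more abundant than *Il1rn*: *Il1a* at 126.5 ± 19.7 and 127 ± 6.73 CPM and *Il1b* at 23.5 ± 10.9 and 25.9 ± 8.28 CPM, with adjusted *P* of 0.997 and 0.970. Per kilobase, in RPKM, *Il1b* ran from 6.86 to 20.7 and *Il1rn* from 0.558 to 2.35.

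Genes acting below the receptors gave no adjusted call either. All 9 IL-10 signalling genes were tested, 5 higher and 4 lower in GA with a median log2 fold change of 0.01. Of these 1 passed an unadjusted *P* of 0.05, beside 5.75% of all genes, but not the adjusted one. That was *Nfil3*, a transcription factor gene induced by IL-10 in macrophages, at 14.1 ± 1.47 CPM in PBS and 17.5 ± 2.46 CPM in GA (log2 fold change 0.31, SE 0.121, unadjusted *P* = 0.0216, adjusted *P* = 0.847), with 4 of 5 GA libraries above all PBS libraries and an unadjusted exact permutation *P* of 0.0317. *Nfil3*, like *Tnfrsf13b* and *Sigirr* below, was named for the smallest *P* of its list. How many of all genes place 4 of 5 GA libraries above PBS is not given here. *Tyk2*, a kinase of the receptor, followed with a log2 fold change of 0.12 (unadjusted *P* = 0.211), which was 0.054 without PBS library 388_5. *Socs3*, a feedback inhibitor that STAT3 induces, was at 48.7 ± 3.12 and 55.1 ± 14.0 CPM (adjusted *P* = 0.915). Of the other class II cytokine receptors and IL-10 relatives 3 of 12 could be tested, all at low counts: *Il20rb* (4 to 61 counts, log2 fold change -1.48), *F3* (33 to 115 counts, 0.74) and *Il22ra2* (6 to 59 counts, 0.38). In edgeR *Il20rb* and *F3* had unadjusted *P* of 0.0358 and 0.0411 and an adjusted *P* of 0.854. Without PBS library 388_4 the fold changes were -0.84 for *Il20rb* and 1.11 for *F3*. With the title number as a replicate block they were -0.83 and 1.11. In that fit too 388_4 carried no weight in the GA estimate, nor did 388_5, since no GA library shares their numbers. The unadjusted exact permutation *P* of *Il20rb* and *F3* were 0.222 and 0.0397 (two-sided).

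Interferon receptor signalling was represented by 15 genes, all tested, 10 higher and 5 lower, with a median log2 fold change of 0.05 and 0 genes under an unadjusted *P* of 0.05. The smallest *P*-values were those of *Irf2*, a repressor of interferon responses (log2 fold change -0.12), and *Ptpn6*, a phosphatase that acts on cytokine receptors (0.10), each with an adjusted *P* of 0.895. Their unadjusted exact permutation *P* were 0.0397 and 0.0952. *Usp18*, an inhibitor that binds the chain of *Ifnar2*, was at 13.7 ± 5.28 and 19.7 ± 12.3 CPM (adjusted *P* = 0.896).

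In the TNF receptor pathway all 17 signalling genes were tested, 6 higher and 11 lower with a median of -0.03, and 0 had an unadjusted *P* under 0.05. *Tab2*, an adaptor of the TAK1 kinase, had a log2 fold change of -0.27 (-0.12 without PBS library 388_4) and *Tradd*, the adaptor of the death domain of the *Tnfrsf1a* product, -0.14, both with an adjusted *P* of 0.895. The fold change of *Tab2* was -0.50 with the GA libraries of prefix 394 alone and -0.12 with those of prefix 400 alone. Of 20 other genes of the TNF receptor superfamily 11 were tested, 7 higher and 4 lower, and 0 passed. *Tnfrsf13b*, which encodes a receptor for BAFF and APRIL, had 153 ± 10.8 and 169 ± 10.6 CPM (log2 fold change 0.14, adjusted *P* = 0.875, unadjusted exact permutation *P* = 0.0476), with 4 of 5 GA libraries above all PBS libraries, and *Cd40*, a costimulatory receptor gene, had 1 to 132 counts (log2 fold change 1.36, adjusted *P* = 0.877), and its fold change was 0.10 with the GA libraries of prefix 394 alone and 1.84 with those of prefix 400 alone.

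Around *Il1rn*, the 14 interleukin-1 genes were all tested, 9 higher and 5 lower with a median of 0.07. *Sigirr*, which encodes an inhibitory receptor of the family, was the 1 gene under an unadjusted *P* of 0.05, beside 5.75% of all genes. It had 20 to 90 counts, with 1.12 ± 0.40 CPM in PBS and 1.98 ± 0.35 CPM in GA (log2 fold change 0.83, SE 0.311, unadjusted *P* = 0.0185, adjusted *P* = 0.847), and 4 of 5 GA libraries lay above all PBS libraries (unadjusted exact permutation *P* = 0.0159). *Irak1*, a kinase of the receptor complex, had a log2 fold change of 0.14 (adjusted *P* = 0.898), which was 0.069 without PBS library 388_5.

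Genes that flank the chromosome 16 receptors stayed near 0 as well. *Tmem50b* had a log2 fold change of -0.07, *Dnajc28* 0.09, *Gart* 0.08 and *Son* -0.07, with unadjusted *P* from 0.274 to 0.467 in edgeR. With 1 library left out *Tmem50b* ran from -0.095 to -0.041 (without 388_5) and *Gart* from 0.038 (without 394_1) to 0.12. *Olig1* and *Olig2*, oligodendrocyte lineage genes on the other side, had too few counts to test. *Gart* shares 1014 exon bases with an antisense gene and *Son* 103 with *Donson*, and the strand setting of the counting is not given in the sources used here.

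Across the 10 libraries the members did not move as a block. Of 36 pairs of members 10 had a Pearson *r* of log2 CPM above 0.5 and 8 were negative, with a median of 0.33. The pair most alike was *Ifnar2* and *Ifngr2* (*r* = 0.85, rho = 0.72), whose promoter windows are among those printed above. Their *r* fell to 0.55 without the 2 libraries farthest from the median, 388_5 and 400_2. All these values share libraries and scaling factors and are a description. Over the same 10 libraries, the other gene with the most similar profile was *Phf11d* for *Il10ra* (*r* = 0.95), *Lrp6* for *Il10rb* (0.96), *Tmem43* for *Ifngr1* (0.97), *Slc35f5* for *Ifngr2* (0.95) and *Tmem115* for *Ifnar1* (0.96). It was *Soat1* for *Ifnar2* (0.95), *Cd63-ps* for *Tnfrsf1a* (0.94), *Terf2* for *Tnfrsf1b* (0.93) and *Ddx52* for *Il1rn* (0.91), each the highest of 14480 genes compared.

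Library 388_5 held extreme values of several receptors. It gave the highest value of the 10 libraries for 5 of the 9 members (*Il10rb*, *Ifngr1*, *Ifngr2*, *Ifnar2* and *Tnfrsf1a*) and the lowest PBS value for *Il10ra*, and it had the lowest TMM factor, 0.954, and the highest summed microglia markers. The share of all genes that were highest in 388_5 is not given here, so this cannot be called particular to the members. Without it the log2 fold changes were 0.04 for *Il10rb*, 0.0048 for *Ifngr2* and 0.016 for *Ifnar1*, opposite in sign to those with it, and 0 members were called.

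Totals ran from 32332185 to 38764643 counts per library, and microglia markers stood far above those of other cell types. The 11 microglia markers summed to 54516 to 64636 CPM in PBS and 55641 to 60141 CPM in GA, led by *Csf1r*, while astrocyte markers summed to 246 to 354 CPM over all libraries, most of it *Slc1a3*, oligodendrocyte markers to 175 to 217 CPM and neuron markers to at most 1.75 CPM. The 9 tested neutrophil markers were all lower in GA, 7 of them under an unadjusted *P* of 0.05 (5.75% of all genes) and none past the adjusted threshold, and the summed list ran from 44.0 to 470 CPM in PBS and from 17.6 to 183 CPM in GA (two-sided exact permutation *P* = 0.0714). For monocytes 6 of 6 tested markers were lower, 3 under an unadjusted *P* of 0.05 and none past the adjusted threshold, with sums of 34.2 to 90.9 and 36.6 to 51.2 CPM (exact permutation *P* = 0.127). Border macrophage markers summed to 39.8 to 196 and 39.8 to 145 CPM. Over the 10 libraries the *r* of a member with a summed marker list ran from -0.78 (*Il10ra*, astrocyte) to 0.84 (*Ifngr1*, microglia). It was 0.67 for *Il10ra* and -0.73 for *Ifnar1* with the endothelium or pericyte sum, and 0.01 for *Il1rn* with the neutrophil sum. The part of other cell types in the members' levels was not tested.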

How the data were processed

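The authors deposited raw counts of reads per gene, listed by symbol, for 10 libraries of sorted hippocampal microglia. By the labels and the study's methods, RNA was amplified with a SMARTer Ultra Low kit, made into Nextera XT libraries and read single-end on a NovaSeq. The submitters' processing notes name bcl2fastq 2.19.0, fastp 0.20.0, STAR 2.7.0f, featureCounts of Subread 1.6.4, DESeq2 and GRCm38.p6. The annotation, strand setting and treatment of reads shared by genes are not given in the sources used here.

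From these counts, genes were filtered with filterByExpr (minimum count 10), scaled by TMM and tested for GA against PBS with edgeR 4.0.16 (quasi-likelihood F-test, R 4.3.3), without a covariate, with Benjamini-Hochberg adjustment over 14481 genes and a threshold of 0.05. *Il10* failed the filter. SEs are the log2 fold change over the root of F. CPM and RPKM were computed with TMM-scaled totals, RPKM with GENCODE M21 exon lengths, which need not be the annotation of the counts. Exact permutation tests (two-sided) of single values used a pseudocount of 0.1 CPM. The 95% intervals are those of the edgeR fit and include the spread between libraries, while floors of 3 counts cover counting error only, since the amplified reads carried no molecular identifiers. All 45 pairs of libraries differed beyond sampling noise (chi-square per degree of freedom 14.0 to 55.7).

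The members, gene lists and motifs were chosen with earlier results of these data known. Genes named were the members, all ligands, the 2 genes with the smallest unadjusted *P* of each list, the flanking genes, the gene most correlated with each member and leading markers, but some of these are not reported here. *Socs3*, *Usp18*, *Adam17* and *Il22ra2*, and *Gm21970*, were named after their values were seen. Alternatives were DESeq2 1.42.0, limma-voom (limma 3.58.1), a robust fit, DESeq2's size factors, totals without TMM, other filters and pseudocounts, each library left out, each GA prefix alone and a replicate block. The fits were tested on simulated data. Numbers in the titles did not pair the libraries. Figures used Python 3.11.15 and matplotlib 3.10.9.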

Additional observations from a re-analysis of the deposited data

Results flagged for a closer look

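In groups of 5 libraries, a library was singled out where its gap to the nearest other, over the range of the group, was above 0.71 (Dixon's critical value), which chance alone reaches in about 5% of groups. Of 26 groups, 3 met this. *Il10ra* in PBS library 388_5 was at 928 CPM, the other PBS libraries lying between 996.5 and 1006.6 CPM (0.871 of the range). *Ifngr1* in the same library was at 1786 CPM, above the other PBS libraries at 1488 to 1537.5 CPM (0.833). The ratio of *Ifnar1* to *Ifnar2* counts in GA library 394_1 was 0.859, above 0.683 to 0.714 in the other GA libraries (0.824).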

How the results depend on the processing

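No alternative brought a member past the adjusted or the unadjusted threshold. The number of genes called over the whole table was 0 in edgeR, 2 with DESeq2's defaults, and 0 to 1 with 1 library left out, the 1 call arising without GA library 394_1. Among the members *Ifngr1* alone kept its sign throughout, from -0.10 to -0.025 with 1 library left out. The others, none of which was called, changed sign somewhere, with log2 fold changes over the fits that each left out 1 library of -0.095 to 0.48 (*Il1rn*), -0.028 to 0.071 (*Tnfrsf1b*), -0.018 to 0.049 (*Tnfrsf1a*), -0.024 to 0.071 (*Il10ra*), -0.0012 to 0.074 (*Ifnar2*), -0.059 to 0.041 (*Il10rb*), -0.055 to 0.016 (*Ifnar1*) and -0.074 to 0.0048 (*Ifngr2*). With the GA libraries of prefix 394 alone, they were -0.068 for *Tnfrsf1b*, -0.010 for *Tnfrsf1a*, -0.12 for *Il10ra*, -0.012 for *Ifnar2* and 0.049 for *Ifnar1*, and with those of prefix 400 alone 0.024 for *Ifngr2*. *Tnf* was 0.037 in limma-voom and -0.28 to 0.07 with 1 library left out. The log2 differences of ratios with 1 library left out were -0.046 to 0.089 (*Il10ra* to *Il10rb*), -0.077 to 0.018 (*Ifngr1* to *Ifngr2*), -0.10 to -0.021 (*Ifnar1* to *Ifnar2*) and -0.061 to 0.054 (*Tnfrsf1b* to *Tnfrsf1a*). The cause of these changes was not tested.

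The title numbers only share a number between groups: same-numbered libraries had correlations of -0.11 to 0.04 over 5 pairs, and others -0.11 to 0.07 over 20. With that number as a replicate block, 0 genes were called, 983 had an unadjusted *P* under 0.05 against 833 without it, and *Il10rb* (0.044), *Ifngr2* (0.0095), *Tyk2* (-0.016) and *Irak1* (-0.016) changed sign. No GA library shares the numbers of PBS libraries 388_4 and 388_5, so these carried no weight in the GA estimate of that fit. It is therefore not separate from the fits that leave 388_4 or 388_5 out.

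*Il10*, with 0 counts, had no comparison, the interferon ligands fell below the filter, and *Il1rn* was limited by its spread between libraries.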
